A study of Mus musculus with 9 samples.

Results

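The response of mouse C2C12 muscle cells to 72 h with 1 nM calcitriol was compared with vehicle across the transcriptome. The 3 samples titled as 1 nM vitamin D and the 3 titled as controls were taken by their titles, 6 of the 9 samples of the series, and the other 3 had received 10 nM. Each sample is total RNA hybridised to its own 1-colour Agilent array. The labels give 3 biological replicates per group. All groups come from C2C12, 1 established myoblast line of which the series speaks as myotubes. The stage of the cells when treatment began and the solvent used as vehicle were not given in the sources used here. Nothing in the labels says that replicates were separate cultures, so the p-values measure the spread between these samples, which may be technical.

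Calcitriol, or 1,25-dihydroxyvitamin D3, is the hormonal form of vitamin D. It binds the vitamin D receptor, a nuclear receptor that pairs with retinoid X receptors on DNA and raises or lowers transcription of nearby genes. In skeletal muscle precursors the hormone is known for slowing proliferation, and in intestine, kidney and bone for controlling genes of calcium handling. C2C12 myoblasts divide in growth serum, leave the cell cycle and fuse when it is withdrawn.

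Levels are log2 of the processed signal minus the array's 75th percentile, so 0 marks that percentile and 1 unit is a doubling. Values of several arrays are listed in the order of replicates 1 to 3. Tests covered 21906 genes, each with a probe marked as well above background on every array of some group. A gene is called when its adjusted p is under 0.05 in limma, with Benjamini-Hochberg adjustment over all genes tested. The 75th percentile of the 9 arrays ran from 2826 to 3389 intensity units, and the small number of arrays limits the precision.

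Vehicle replicate 3 differed from the rest. Its array had 6124 spots marked as non-uniform, against 8 to 56 on the other arrays, and with these spots dropped 1695 genes lacked a value from it. Of its spots 96.4% were well above background, and its median signal was 660 intensity units, against 216 to 315 on the others. Its excess over the mean of the other vehicle arrays had a median of 1.84 on the log2 scale in the dimmest of 10 equal groups of genes and -0.10 in the brightest. The counts over all genes, and the results that this array moved most, are therefore given with it and without it.

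**Figure D1:**
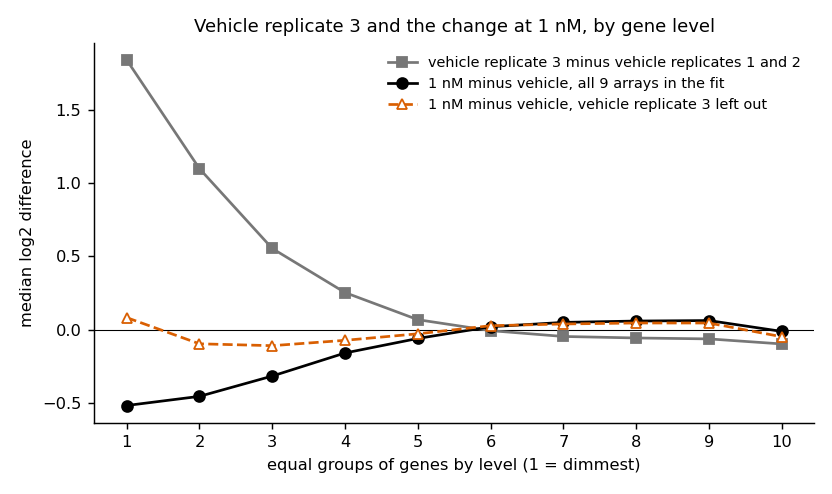
Median log2 difference in 10 equal groups of genes ordered by level, from dimmest to brightest. Squares show vehicle replicate 3 against the other vehicle arrays, filled circles the change at 1 nM in the fit of all arrays, and open triangles the change without vehicle replicate 3. The excess of that array falls from 1.84 to -0.10 across the groups, and the median change in the dimmest group is -0.52 with it and 0.083 without it.

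At 1 nM, 5182 genes (23.7% of those tested) were called, 2584 higher (11.8%) and 2598 lower (11.9%). An unadjusted p under 0.05 was reached by 7517 genes, and the vehicle and 1 nM values did not overlap for 9300 (42.5%). Without vehicle replicate 3 the count was 5565 (25.4%), 2918 higher (13.3%) and 2647 lower (12.1%). Of the genes called, 4619 were called in both fits, which is 89.1% of the first set and 83.0% of the second, and 0 of them turned direction. Genes called only without that array were mostly higher, 656 against 290 lower.

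Most changes were small. The median called change was 1.42-fold among the higher genes and 1.71-fold among the lower ones. The lower side held more genes at moderate sizes and the higher side more of the extreme ones. At least 2-fold changes were called for 455 higher genes (2.08% of those tested) and 997 lower genes (4.55%). At least 4-fold, the counts were 135 (0.616%) and 387 (1.77%), and at least 8-fold, 59 (0.269%) and 194 (0.886%). At least 16-fold they were 36 (0.164%) and 65 (0.297%), and at least 32-fold, 20 (0.0913%) and 9 (0.0411%). Without vehicle replicate 3 the higher counts grew to 609 at 2-fold, 82 at 8-fold and 29 at 32-fold, while the lower counts were 917, 174 and 10.

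**Figure D2:**
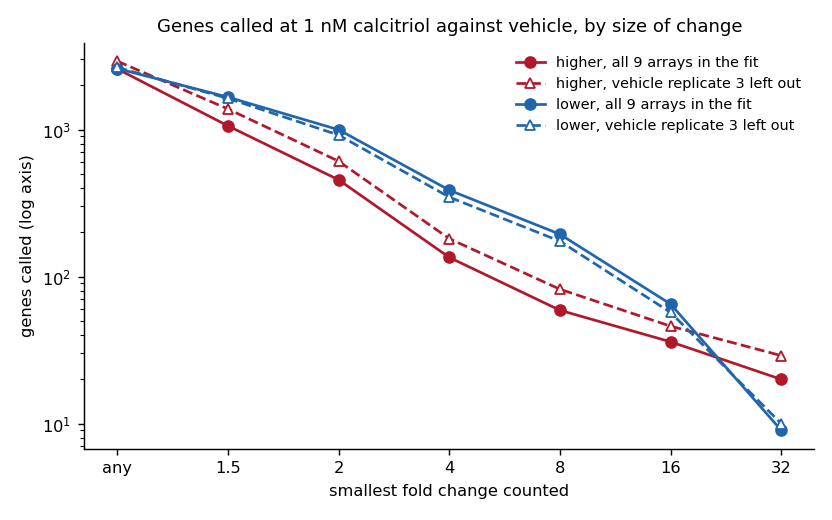
Number of genes called at 1 nM against vehicle whose change reached each fold, on a log axis. Filled circles use all arrays and open triangles leave out vehicle replicate 3. Lower genes outnumber higher ones from 1.5-fold to 16-fold, and at 32-fold the counts are 20 higher and 9 lower.

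The split between higher and lower depended on scaling. The median change of all genes was -0.088 on the log2 scale with the 75th percentile, -0.019 without vehicle replicate 3, 0.46 with scaling to the array median instead, and 0.085 with that scaling without vehicle replicate 3. Of the calls 49.9% were higher in the main setting, 61.5% with median scaling, 56.7% with median scaling without vehicle replicate 3, 63.3% with quantile normalization and 65.6% with normexp correction and quantile normalization. All 80 of the highest and lowest named genes described below kept their direction and call with median scaling. They were picked for the largest changes, so this says little about the other genes. A fit blocked on slide called 4822 genes. Slide 1 held vehicle replicates 1 and 2 and 1 nM replicate 1, and slide 2 held vehicle replicate 3 and 1 nM replicates 2 and 3. Treatment was thus not balanced over slides, and a comparison within slide 2 rests on vehicle replicate 3 alone. Because the split moved with scaling, directions of whole gene groups are read against the median of all genes in the same setting.

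Some genes crossed the detection limit. Of the genes tested, 77 were well above background on all vehicle arrays and on none of the 1 nM arrays, and 57 of these were called lower. In the other direction 29 genes went from none of the vehicle arrays to all of the 1 nM arrays, of which 25 were called higher. A dropped spot counted as not well above background, so Grpr is among the 29 though it had no value on vehicle replicate 3. Both sets were picked by detection in the same values, so their calls follow largely from that choice. Judged on vehicle replicates 1 and 2 alone, 77 genes went from neither to all 3 of the 1 nM arrays and 77 in the other direction. By annotated type, 14.5% of 15913 protein-coding genes were called higher and 13.5% lower, against 5.81% and 6.63% of 860 long non-coding RNA genes.

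The genes with the largest increases include proteases that cut the extracellular matrix, acute-phase and complement proteins, whey acidic proteins, and receptors for peptides and cytokines. The 40 highest named genes rose by at least 3.66 on the log2 scale, and 23 of them were not well above background on every vehicle array. Those 23 include genes whose spot on vehicle replicate 3 was dropped, as for Csf2rb, well above background on vehicle replicates 1 and 2. For the genes that were dim in vehicle the fold depends on signals near background. Leaving out vehicle replicate 3 raised 14 of the 40 changes by more than 0.5 on the log2 scale, by up to 1.65.

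**Figure D3:**
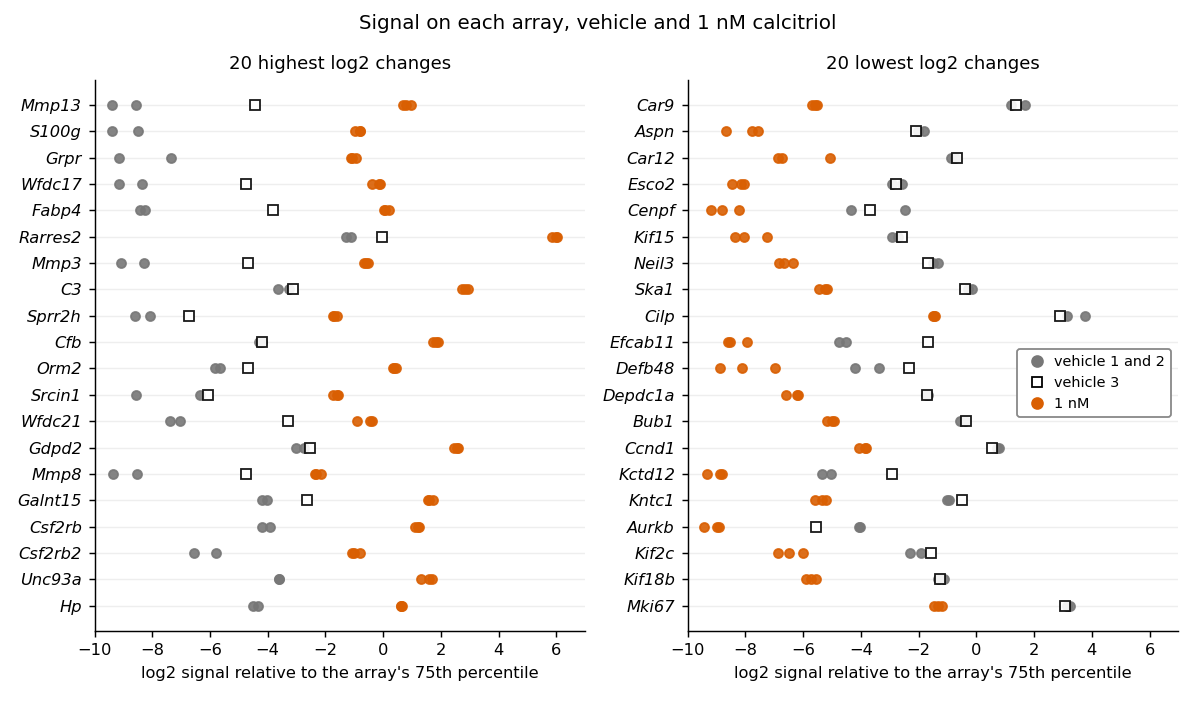
Log2 signal relative to the array's 75th percentile for the 20 named genes with the highest and the 20 with the lowest log2 change, 1 point per array. Grey circles are vehicle replicates 1 and 2, open squares vehicle replicate 3, and orange circles the 1 nM arrays. The rule that chose these genes required groups that do not overlap. Vehicle replicate 3 reads far above the other vehicle arrays for several dim genes on the left, as for Mmp13 at -4.43 against -9.38 and -8.55.

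Matrix proteases are described first. Mmp13, collagenase 3, read -9.38, -8.55 and -4.43 in vehicle and 0.79, 0.96 and 0.68 at 1 nM. It was well above background on 1 of 3 vehicle arrays, and its change was 8.27 on the log2 scale (SE 1.12, limma adjusted p = 0.00139), and at least 183-fold without vehicle replicate 3, since neither other vehicle array was well above background. Mmp3, stromelysin 1, read -9.08, -8.27 and -4.67 in vehicle and -0.67, -0.52 and -0.60 at 1 nM. Mmp8, the neutrophil collagenase, read -9.34, -8.51 and -4.74 in vehicle and -2.33, -2.15 and -2.37 at 1 nM. Both were also well above background on 1 vehicle array only, rose by 6.75 and 5.25, and at least 68.9-fold and 21.4-fold without vehicle replicate 3. On each of these probes the highest vehicle value is that of replicate 3, and it lies below every 1 nM value.

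Secreted carrier and defence proteins formed the next group. Hp, haptoglobin, which binds free haemoglobin, read -4.33 and -4.49 in vehicle replicates 1 and 2, with no value in replicate 3, and 0.65, 0.62 and 0.62 at 1 nM, a 32.9-fold increase (SE 0.085 on the log2 scale, adjusted p = 2.53e-07 in limma). Orm3, an acute-phase glycoprotein, read -5.46, -5.13 and -2.88 in vehicle and 0.37, 0.25 and 0.091 at 1 nM, a 26.5-fold increase, or 46.3-fold without vehicle replicate 3. The probes of Orm1, Orm2 and Orm3 target close paralogs, and cross-hybridisation between them was not tested. Rarres2, the precursor of the attractant chemerin, read -1.10, -1.28 and -0.032 in vehicle and 5.98, 6.03 and 5.85 at 1 nM. C3, the central complement component, read -3.28, -3.65 and -3.12 in vehicle and 2.93, 2.84 and 2.73 at 1 nM, and its other kept probe changed by 2.64. On the arrays with a value, every 1 nM value of these genes lies above every vehicle value, as their selection required.

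Wfdc17, Wfdc18 and Wfdc21 encode small secreted proteins with a whey acidic protein fold, which inhibits proteases in some relatives. Wfdc17 read -9.15, -8.35 and -4.74 in vehicle and -0.11, -0.15 and -0.40 at 1 nM, and Wfdc21 -7.03, -7.38 and -3.31 in vehicle and -0.39, -0.47 and -0.90 at 1 nM. They rose by 7.19 and 5.32, and were well above background on 1 and 2 vehicle arrays. Without vehicle replicate 3, Wfdc17 rose at least 89.3-fold, and Wfdc21 by 6.62 with 1 vehicle array well above background. Wfdc18 had no value on vehicle replicate 3 and rose by 4.54 (adjusted p = 3.73e-04 in limma). Fabp4, the fatty acid binding protein of adipocytes and macrophages, read -8.27, -8.43 and -3.82 in vehicle and 0.077, 0.19 and 0.042 at 1 nM. Its change was 6.94 with 1 vehicle array well above background, and at least 112-fold without vehicle replicate 3.

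Receptors and their modulators rose as well. Grpr, the receptor for gastrin-releasing peptide, read -9.15 and -7.34 in vehicle replicates 1 and 2, with no value in replicate 3, and -1.09, -0.93 and -1.13 at 1 nM. It was not well above background on any vehicle array, so its increase is at least 50.4-fold, with each vehicle array entered at the probe's signal or at the dimmest signal that still counted as detected there, whichever was higher. Csf2rb, the receptor chain shared by GM-CSF, interleukin 3 and interleukin 5, read -3.91 and -4.20 in vehicle replicates 1 and 2, with no value in replicate 3, and 1.09, 1.25 and 1.22 at 1 nM, a 37.7-fold increase. Csf2rb2 rose 36.8-fold, but it is a near copy of Csf2rb, and another kept probe of each gene changed by 1.58 and 0.88 on the log2 scale. Npr3, the clearance receptor for natriuretic peptides, read -5.35, -5.51 and -3.20 in vehicle and 0.26, 0.26 and 0.014 at 1 nM and rose 29.1-fold, or 48.7-fold without vehicle replicate 3. Grb14, an adaptor that binds and restrains the insulin receptor, read -2.15, -2.29 and -2.08 in vehicle and 2.19, 2.05 and 1.96 at 1 nM, and vehicle replicate 3 lies with the other vehicle arrays there. Rap1gap, which switches off the GTPase RAP1, read -1.62, -1.48 and -1.67 in vehicle and 2.55, 2.59 and 2.50 at 1 nM, and its other kept probe changed by 4.03.

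Enzymes made up a further part. Dio2, the deiodinase that activates thyroid hormone, read 0.90, 1.00 and 0.84 in vehicle and 4.99, 5.05 and 5.06 at 1 nM, a 17.4-fold increase (SE 0.078, adjusted p = 2.20e-07 in limma). Enpp3, an ectonucleotidase, read -1.14, -1.06 and -1.19 in vehicle and 3.08, 3.01 and 3.04 at 1 nM, an 18.1-fold increase. Xdh, xanthine dehydrogenase of purine breakdown, read -4.92, -4.79 and -4.12 in vehicle and 0.12, 0.15 and -0.022 at 1 nM, a 25.9-fold increase. The groups are far apart for all 3 genes, and for Dio2 and Enpp3 leaving out vehicle replicate 3 moved the log2 change by under 0.1. Gdpd2, a glycerophosphodiester phosphodiesterase, rose 39.8-fold, and Galnt15, which starts O-linked glycan chains, 38.0-fold. Without vehicle replicate 3 Galnt15 rose 53.5-fold, and its other kept probe changed by 2.78 on the log2 scale. Cyp11b1, the steroid 11-beta-hydroxylase, rose 20.3-fold with signals well above background on 2 vehicle arrays, and 32.4-fold without vehicle replicate 3. Pappa2, a protease that cleaves IGF binding proteins, rose 12.6-fold.

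Other genes of the highest 40 are known for quite different tissues. Krt17, a keratin of stratified epithelia, read -6.61, -5.63 and -4.13 in vehicle and -0.80, -0.65 and -0.63 at 1 nM, a 27.2-fold increase, or 43.0-fold without vehicle replicate 3. Psg17, a pregnancy-specific glycoprotein, rose by 4.87, or by 5.57 without that array, Srcin1, a scaffold that restrains Src kinases, by 5.37, and Nxph3, a neurexophilin, by 3.85. Sprr2h, a small proline-rich protein of the cornified envelope family, was not well above background on any vehicle array and rose at least 28.8-fold. Tmem100 and Ankrd55 likewise rose at least 7.34-fold and 5.85-fold, with no value on vehicle replicate 3.

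Promoter sequences are shown for several of the highest genes because they carry the motif TTGCNNAA, a form of the site bound by C/EBP factors, close to the gene start. RefSeq promoter sequences of GRCm38.p6 were matched for 88 of the 135 genes called at least 4-fold higher and 274 of the 387 called at least 4-fold lower, by symbol. In the 250 bases before the start, on either strand, TTGCNNAA was present in 23.9% of the 88, in 9.73% of 13416 matched genes tested and in 10.2% of the 274. The 120 bases just upstream of the start are printed on the gene's strand, with the motif in capitals. They are chr17:57228137-57228256 on the minus strand for C3, chr4:63362329-63362448 on the plus strand for Orm2, chr9:7558309-7558428 on the plus strand for Mmp8 and chr12:90739039-90739158 on the minus strand for Dio2.
C3: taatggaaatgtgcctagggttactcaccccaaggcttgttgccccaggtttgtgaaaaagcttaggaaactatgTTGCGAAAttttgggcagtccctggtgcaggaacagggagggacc
Orm2: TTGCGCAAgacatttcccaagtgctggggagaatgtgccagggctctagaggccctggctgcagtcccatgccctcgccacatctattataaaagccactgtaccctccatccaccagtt
Mmp8: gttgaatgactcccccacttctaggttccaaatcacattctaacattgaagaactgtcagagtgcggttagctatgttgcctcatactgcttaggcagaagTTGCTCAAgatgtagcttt
Dio2: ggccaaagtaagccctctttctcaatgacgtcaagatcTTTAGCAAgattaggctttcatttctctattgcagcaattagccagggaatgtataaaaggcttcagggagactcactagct
The motif begins 45 bases before the start in C3, 120 in Orm2, 19 in Mmp8 and 82 in Dio2, where it reads on the opposite strand.

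In all 10 motifs were searched. TGANTCA, the AP-1 site, was present in 17.1% of the genes at least 4-fold higher, in 6.32% of the genes tested and in 9.49% of those at least 4-fold lower. A DR3-type vitamin D response element was present in 1 of the 88 promoters and 4 of 13416. The shares for the NF-kB site were 9.09% of the higher genes and 10.3% of the genes tested. ACGTG, which is part of the E-box CACGTG, was present in 21.6% and 22.4%, and in 21.2% of the genes at least 4-fold lower. TGACGTCA, the cyclic AMP response element, was present in 1 of the 88 and 2.68% of the genes tested, and a glucocorticoid response element in 1 of the 88 and 0.38%. Motifs of different kinds were counted separately even where they overlap. A match is a description of these letters in this window and not a bound site.

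Among the 40 lowest named genes are motors and checkpoint proteins of the spindle, enzymes of DNA synthesis and repair, and regulators of the cycle, beside matrix proteins and carbonic anhydrases. All 40 fell by at least 4.19 on the log2 scale, and 20 of them were not well above background on every 1 nM array. Leaving out vehicle replicate 3 moved 2 of these changes by more than 0.5. Where a decrease is given as at least some fold, the mean of the vehicle arrays was used, vehicle replicate 3 included. Such bounds were not computed without that array. In bulk RNA, fewer dividing cells and less RNA of these genes per cell cannot be told apart.

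Cycle regulators were bright in vehicle and low at 1 nM. Ccnd1, cyclin D1, which drives entry into DNA synthesis, read 0.71, 0.77 and 0.56 in vehicle and -3.81, -4.08 and -3.86 at 1 nM, a 24.2-fold decrease (SE 0.12, adjusted p = 2.94e-07 in limma). Mki67, the proliferation antigen Ki-67, read 3.13, 3.24 and 3.08 in vehicle and -1.33, -1.48 and -1.18 at 1 nM, a 22.3-fold decrease, and its other kept probe changed by -4.60. E2f7, a repressor of the E2F family, read 0.87, 0.46 and 0.84 in vehicle and -3.58, -3.78 and -3.39 at 1 nM, but its other kept probe changed by -0.41 only. For each of these genes the 3 values of a group lie within 0.5 of each other.

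Spindle and kinetochore genes fell as far. Birc5, survivin, read 3.75, 3.84 and 3.60 in vehicle and -0.49, -0.65 and -0.49 at 1 nM, a 19.3-fold decrease. Bub1, a checkpoint kinase, read -0.39, -0.58 and -0.36 in vehicle and -5.02, -5.19 and -4.94 at 1 nM, a 24.3-fold decrease. Top2a, the topoisomerase that untangles sister chromosomes, read 0.53, 0.73 and 0.45 in vehicle and -3.72, -4.01 and -3.68 at 1 nM, a 20.7-fold decrease. Vehicle replicate 3 lies within 0.3 of both other vehicle arrays for these 3 genes. Aurkb, a kinase of the chromosomal passenger complex, and Kif15, a spindle motor, were not well above background on any 1 nM array, and fell at least 5.16-fold and 18.2-fold.

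Genes of DNA synthesis and repair were also in this set. Tk1, thymidine kinase of the nucleotide salvage pathway, read 2.29, 2.02 and 2.28 in vehicle and -2.17, -2.39 and -2.17 at 1 nM, a 21.7-fold decrease, with 2 other kept probes at -2.80 and -0.78. Brip1, a helicase that works with BRCA1, and Fancd2, of the Fanconi anaemia repair pathway, were not well above background on any 1 nM array. With vehicle replicate 3 included they fell at least 7.17-fold and 7.53-fold. That array reads highest for both, in vehicle -4.30, -4.75 and -3.20 for Brip1 and -4.42, -4.27 and -3.34 for Fancd2, so the bounds lean on it. Melk, a mitotic kinase, read 0.043, -0.21 and -0.063 in vehicle and -4.39, -4.35 and -4.25 at 1 nM, a 19.1-fold decrease. Pbk, another mitotic kinase, fell 19.9-fold.

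Genes known for other functions were among the lowest as well. Car9, a carbonic anhydrase of the cell surface, read 1.19, 1.70 and 1.38 in vehicle and -5.53, -5.58 and -5.70 at 1 nM. Cilp, a protein of cartilage matrix, read 3.15, 3.77 and 2.89 in vehicle and -1.45, -1.51 and -1.45 at 1 nM, a 26.8-fold decrease. Cdhr1, a photoreceptor cadherin, read -0.026, 0.42 and -0.31 in vehicle and -4.39, -4.25 and -4.46 at 1 nM, a 21.0-fold decrease. Car9 had the largest decrease of the named genes, by 7.03 on the log2 scale, and vehicle replicate 3 is the lowest vehicle array for Cilp and Cdhr1. Ret, the receptor for GDNF family ligands, Olr1, the receptor for oxidised LDL, and Tnn, tenascin N, were not well above background on any 1 nM array. They fell at least 5.69-fold, 15.3-fold and 5.86-fold. Dmp1, a phosphoprotein of mineralised matrix, fell by 4.29 on the log2 scale with 1 of 3 treated arrays well above background.

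The promoters of several of these division genes are shown for a pair of short motifs near the start. CCAAT is the box bound by NF-Y, and TTTGAA is the core of the cell cycle genes homology region. CCAAT was present in 50.7% of the 274 promoters of genes at least 4-fold lower, in 39.7% of the genes tested and in 37.5% of those at least 4-fold higher. TTTGAA was present in 20.1%, 13.9% and 12.5%. TTCCCGC, an E2F-type site, was present in 6.93%, 6.72% and 4.55%. The 120 upstream bases are chr11:99024190-99024309 on the minus strand for Top2a, chr15:102296173-102296292 on the plus strand for Espl1, the separase gene, chr19:37376262-37376381 on the plus strand for Kif11, a spindle motor, and chr5:123749606-123749725 on the plus strand for Kntc1, a kinetochore gene. Both motifs are in capitals on either strand.
Top2a: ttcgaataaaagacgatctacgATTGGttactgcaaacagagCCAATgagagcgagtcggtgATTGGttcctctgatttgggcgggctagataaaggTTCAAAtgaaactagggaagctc
Espl1: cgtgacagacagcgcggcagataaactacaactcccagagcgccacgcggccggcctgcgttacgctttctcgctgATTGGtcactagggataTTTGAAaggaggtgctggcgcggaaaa
Kif11: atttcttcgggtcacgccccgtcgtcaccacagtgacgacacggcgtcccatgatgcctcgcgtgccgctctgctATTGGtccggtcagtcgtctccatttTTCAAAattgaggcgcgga
Kntc1: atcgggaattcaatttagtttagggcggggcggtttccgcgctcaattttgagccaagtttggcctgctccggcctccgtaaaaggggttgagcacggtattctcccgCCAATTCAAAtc
Top2a has 3 CCAAT matches in this stretch, at 98, 78 and 58 bases before the start, and the TTTGAA match begins 23 bases before it. In Kntc1 the motifs begin at 12 and 8 bases and overlap by 1 base.

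Known vitamin D targets did not respond alike at this dose. Of 23 measured genes listed as targets or hydroxylases, 6 were called higher and 4 lower, or 9 and 4 without vehicle replicate 3, against 11.8% and 11.9% of all genes tested. The lower calls depended on scaling. With median scaling the counts were 5 higher and 0 lower, or 9 and 4 without vehicle replicate 3. Quantile normalization, with or without normexp correction, gave 8 higher and 1 lower. Thbd, thrombomodulin, an anticoagulant receptor, read -2.40, -2.49 and -2.55 in vehicle and 0.43, 0.32 and 0.27 at 1 nM, a 7.07-fold increase (SE 0.074, adjusted p = 3.10e-07 in limma). S100g, the calcium buffer calbindin D9k, read -9.41 and -8.49 in vehicle replicates 1 and 2, with no value in replicate 3, and -0.81, -0.79 and -0.97 at 1 nM, an increase of at least 57.4-fold, and its other kept probe changed by 7.02. Cldn2, a claudin that forms cation pores, rose 3.28-fold with no value on vehicle replicate 3, but its other kept probe went the other way at -0.84. Spp1, osteopontin, rose 1.51-fold, and Hbegf, a growth factor of the EGF family, fell 2.10-fold.

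The enzyme that breaks the hormone down and its receptor were read at both doses. Cyp24a1, the 24-hydroxylase, read -5.41, -4.65 and -5.51 in vehicle and -3.87, -3.76 and -4.05 at 1 nM, and 0.96, 0.92 and 0.95 at 10 nM. Its increase at 1 nM was 2.45-fold (adjusted p = 0.00385 in limma). Vdr, the receptor, read 1.94, 2.08 and 2.06 in vehicle and 2.07, 2.19 and 2.12 at 1 nM, a difference of 0.10 that did not pass the test (adjusted p = 0.356 in limma), and 3.59, 3.65 and 3.68 at 10 nM. C3 averaged 2.83 ± 0.10 (SD, n = 3) at 1 nM and 3.98 ± 0.068 at 10 nM, and Mki67 -1.33 ± 0.15 and -2.32 ± 0.056. Both doses are set against the same vehicle arrays.

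Beyond the extremes, 22 functional lists were counted. The shares below are read against the 11.8% of all genes called higher and 11.9% called lower, and no list was tested as a set. The direction of a list is the sign of its median minus the median of all genes. It kept that sign in the main fit, without vehicle replicate 3, with median scaling with and without that array, with quantile normalization and with normexp and quantile normalization, except for the lists of nucleotide synthesis, ERK feedback, NF-kB and muscle secreted factors. With median scaling few members passed the test: 6 chromatin genes fell and 0 rose, 2 lysosome genes rose and 0 fell, and 0 genes of the lamina, ribosome or amino acid lists or of the tubulins were called. With median scaling without vehicle replicate 3 the counts were nearer the main ones: 13 chromatin and 6 lamina genes and 4 tubulins fell, and 8 lysosome and 4 amino acid breakdown genes rose.

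**Figure D4:**
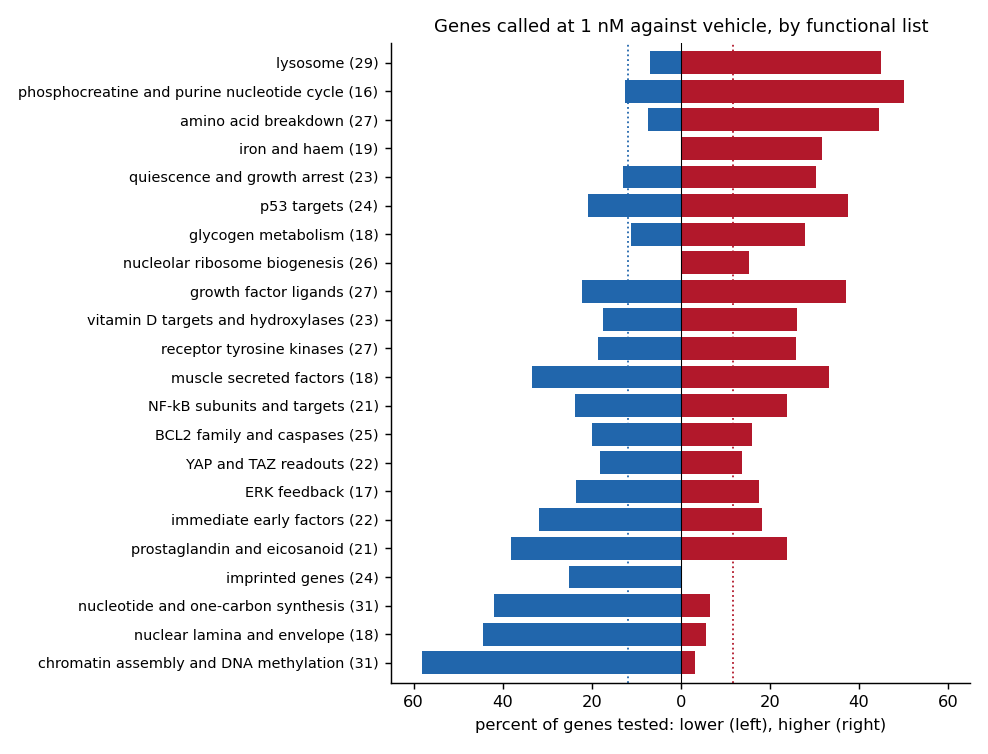
Percent of the genes tested in each functional list that were called higher (right) or lower (left) at 1 nM against vehicle, with the number tested in brackets. Dotted lines mark the shares of all genes, 11.8% and 11.9%. Chromatin assembly and nuclear lamina genes lie far to the left, and lysosome, phosphocreatine and amino acid breakdown genes to the right.

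Of 31 genes of chromatin assembly and DNA methylation, 18 fell and 1 rose, with a median change of -0.42. Uhrf1, which brings DNA methyltransferase to new DNA, fell 11.9-fold, Asf1b, a histone chaperone, 8.27-fold, and Hmgb2, a DNA-bending protein, 4.65-fold. Of 18 nuclear lamina and envelope genes 8 fell and 1 rose. Lmnb1, lamin B1, read 0.33, 0.30 and 0.18 in vehicle and -1.75, -1.71 and -1.69 at 1 nM, a 3.96-fold decrease (adjusted p = 8.04e-07 in limma). The 3 treated values lie below every vehicle value.

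Of 31 genes of nucleotide and one-carbon synthesis 13 fell and 2 rose, with a median of -0.20, which lies 0.11 below that of all genes in the main fit and 0.028 above it with normexp and quantile normalization. Dck, a salvage kinase, fell 3.94-fold, Mthfd1l, of mitochondrial folate metabolism, 3.03-fold, and Rrm1, the large subunit of ribonucleotide reductase, 1.66-fold. Of 26 nucleolar ribosome biogenesis genes 4 rose and 0 fell, and the share that rose, 15.4%, is near the 11.8% of all genes. With median scaling 0 of them rose, and with quantile normalization 1 did. The largest increase in the main fit was that of Gnl3, nucleostemin, at 1.48-fold.

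Tubulins that passed the test fell by smaller amounts. Of 21 tubulins 9 fell and 0 rose. Tuba1c fell 2.02-fold and Tubb5 1.80-fold, and probes of tubulin genes can cross-hybridise. Of 22 readouts of YAP and TAZ 4 fell and 3 rose, or 5 without vehicle replicate 3. Nt5e, the ectonucleotidase CD73, fell 4.97-fold, and Ccn2, connective tissue growth factor, 2.03-fold.

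Of 29 lysosome genes 13 rose and 2 fell, with a median of 0.25. Ctsf, a cysteine cathepsin, rose 1.84-fold, Psap, the saposin precursor, 1.83-fold and Lamp2, a membrane protein, 1.73-fold. Of 27 amino acid breakdown genes 12 rose and 2 fell. Bckdha, of the branched-chain ketoacid dehydrogenase, rose 1.53-fold and Acadsb, which acts further down, 1.63-fold, with another kept probe at -0.15, while Bcat1, the cytosolic transaminase at the head of the pathway, fell 2.67-fold.

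Energy buffering and iron genes followed. Of 16 genes of phosphocreatine and the purine nucleotide cycle 8 rose and 2 fell. Slc6a8, the creatine transporter, rose 2.21-fold and Ampd3, an AMP deaminase, 2.26-fold. Ak4, a mitochondrial adenylate kinase, read 0.15, 0.049 and 0.15 in vehicle and -3.50, -3.35 and -3.26 at 1 nM. That is an 11.2-fold decrease, and the other kept probe of Ak4 changed by -1.63 on the log2 scale. Of 19 iron and haem genes 6 rose and 0 fell. Steap2 and Steap1, metalloreductase family members, rose 3.64-fold and 2.62-fold, Cp, ceruloplasmin, 3.13-fold, and Slc40a1, the iron exporter ferroportin, 2.94-fold.

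Of 23 quiescence and growth arrest genes 7 rose and 3 fell. Selenop, which carries selenium, rose 3.14-fold and Gas6, the ligand of TAM receptors, 2.05-fold, while Foxo1 fell 1.44-fold. Of 24 p53 targets 9 rose and 5 fell. Sesn1, a stress-induced regulator of TOR signalling, rose 2.89-fold and Gtse1, a mitotic gene of the same list, fell 12.7-fold. Of 25 BCL2 family and caspase genes 4 rose and 5 fell.

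Imprinted genes that passed the test fell. Of 24 measured, 6 fell and 0 rose, and without vehicle replicate 3 the counts were 4 and 1. With median scaling 2 fell and 1 rose. Mest read 3.49, 3.48 and 3.39 in vehicle and -0.17, -0.26 and -0.0084 at 1 nM, a 12.1-fold decrease, and Cdkn1c, the cell cycle inhibitor p57, read 1.83, 1.74 and 1.43 in vehicle and -0.51, -0.73 and -0.99 at 1 nM, a 5.30-fold decrease. The groups do not overlap for either gene. The remaining called members changed by less, as for Igf2r, which fell 1.35-fold.

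Signals between cells changed in both directions. Of 27 growth factor ligands 10 rose and 6 fell. Gdnf, the ligand of the receptor complex that holds Ret, rose by 2.59 on the log2 scale. Artn, a relative that acts through the same complex, fell 3.13-fold. Csf1, which sustains macrophages, rose 2.04-fold, with other kept probes at 0.33 and 0.37 on the log2 scale. Of 27 receptor tyrosine kinases 7 rose and 5 fell. Tek, the angiopoietin receptor, rose 6.61-fold, with 1 vehicle array well above background and no value on vehicle replicate 3, and its ligand Angpt1 rose 2.00-fold. Fgfr4, a receptor of muscle progenitors, fell 4.98-fold, with another kept probe at -1.58 on the log2 scale. Fgfr3 rose 1.65-fold, with another kept probe at -0.54.

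Muscle secreted factors and eicosanoid genes split evenly or leaned lower. Of 18 secreted factors 6 rose and 6 fell. Igfbp5 rose 3.06-fold and Dcn, decorin, 2.74-fold, while Apln, apelin, fell 7.15-fold and Erfe, myonectin or erythroferrone, 6.23-fold. Of 21 prostaglandin and eicosanoid genes 5 rose and 8 fell. Alox5ap, which presents arachidonic acid to 5-lipoxygenase, fell 4.50-fold, and Ptgfr, the receptor for prostaglandin F, rose 2.95-fold. Of 18 glycogen genes 5 rose and 2 fell. Pygm, muscle glycogen phosphorylase, rose 1.42-fold, and Pygl, the liver form, fell 4.18-fold.

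Signalling readouts gave no single direction. Of 22 immediate early factors 4 rose and 7 fell. Fosl2, an AP-1 subunit, rose 3.16-fold, with another kept probe at -0.42, while Egr2 fell 1.86-fold and Nr4a2 1.92-fold. Of 17 ERK feedback genes 3 rose and 4 fell, or 5 and 5 without vehicle replicate 3, and Errfi1, an inhibitor of the EGF receptor, rose 2.51-fold. Of 21 NF-kB subunits and targets 5 rose and 5 fell. Il34, a ligand of the CSF1 receptor, rose 2.64-fold, and Tnfaip3, a brake on the pathway, fell 1.76-fold.

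Gene families picked by their symbols gave a further view. Tubulins, RGS proteins and septins had members that fell and 0 that rose in the fit of all arrays, while without vehicle replicate 3 an RGS gene and a septin rose. HOX genes had 5 of 25 that rose and 0 that fell, but their median change of -0.088 was that of all genes. RGS proteins shorten signals of G proteins, and 6 of 18 fell. Rgs17 fell 2.86-fold and Rgs16 2.01-fold. Among the HOX genes Hoxa10 rose by 0.73 and Hoxc4 by 0.58 on the log2 scale. Of 13 septins 4 fell, and 3 without vehicle replicate 3. Among the families described here, the direction of the median against that of all genes turned in at least 1 of those settings for solute carriers, semaphorins and plexins, cytochromes P450 and both families of sensory receptors.

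**Figure D5:**
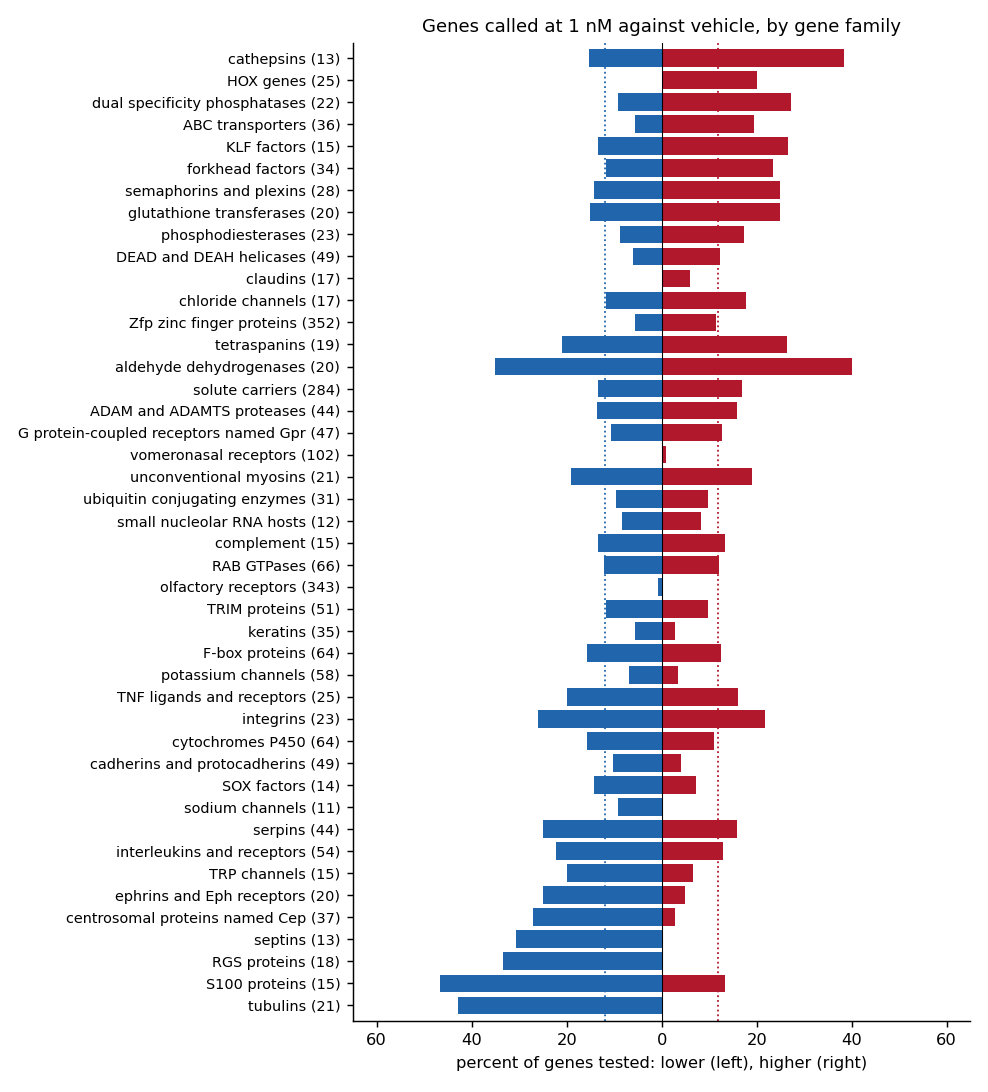
Percent of the genes tested in each symbol family that were called higher (right) or lower (left) at 1 nM against vehicle, with the number tested in brackets and dotted lines at the shares of all genes, 11.8% and 11.9%. Tubulins and S100 proteins lie far to the left, cathepsins to the right, and the odorant and vomeronasal receptors near 0.

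S100 proteins went in opposite directions. Of 15 measured, 7 fell and 2 rose, with a median of -0.47. S100a4, tied to cell motility, fell 2.12-fold and S100a10, the partner of annexin A2, 2.23-fold, whereas S100g is among the highest genes. Of 23 integrins 5 rose and 6 fell. Itgb3 fell 9.63-fold and Itgav, its alpha partner, 1.55-fold, while Itga6, a laminin receptor chain, rose 3.57-fold, with another kept probe at -0.39. Of 44 serpins 7 rose and 11 fell.

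Guidance molecules and transporters also divided. Of 28 semaphorins and plexins 7 rose and 4 fell. Sema3f rose 5.29-fold and Sema5a 4.27-fold, while Sema3g fell 9.92-fold. Of 20 ephrins and Eph receptors 1 rose and 5 fell. Epha4 rose 6.44-fold and Epha1 fell 8.63-fold. Of 284 solute carriers 48 rose and 38 fell. Slc6a2, the noradrenaline transporter, rose 6.82-fold, and Slc16a3, a lactate exporter, fell 6.52-fold.

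Transcription factor families held single large movers. Klf15, a glucocorticoid-responsive factor of muscle metabolism, was not well above background on any vehicle array and rose at least 2.71-fold, while 4 of 15 KLF factors in all rose and 2 fell. Of 34 forkhead factors 8 rose and 4 fell. Foxc1 rose 2.65-fold, and Foxm1, which drives mitotic genes, fell 7.38-fold, with another kept probe at -1.96 on the log2 scale. Of 352 Zfp zinc finger genes 40 rose and 20 fell, shares at or under those of all genes. The cytochromes P450 had 7 up and 10 down of 64, and the aldehyde dehydrogenases 8 up and 7 down of 20, with Aldh2 up 4.58-fold and Aldh1a3, which makes retinoic acid, down 8.52-fold.

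Sensory receptor families held few called genes. Of 343 olfactory receptor genes 1 was called higher and 3 lower, and of 102 vomeronasal receptor genes 1 higher and 0 lower. Their median changes were -0.40 and -0.36 in the fit of all arrays, and -0.16 and -0.14 without vehicle replicate 3. With quantile normalization the medians lay 0.096 and 0.14 above that of all genes, so the direction turned there.

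Words in the array's gene descriptions were counted to look past ready-made lists, for words found in at least 20 genes tested. At least 2-fold lower were 36.5% of 63 genes with the word cluster, 32.6% of 43 with kinesin, 29.2% of 89 with histone, 26.2% of 42 with collagen and 24.3% of 37 with division, against 4.55% of all genes. At least 2-fold higher were 0%, 2.33%, 1.12%, 7.14% and 0% of the genes with these words, in the same order. A gene counts under each word of its description, so words such as cluster and histone can share genes. At least 2-fold higher were 23.5% of 34 genes with the word ligand, 21.7% of 23 with s-transferase, 8 of 42 with chemokine and 13.2% of 38 with muscle, against 2.08% of all genes. Of the same words, 11.8% for ligand, 13.0% for s-transferase, 4 of 42 for chemokine and 2.63% for muscle were at least 2-fold lower. Not every leading word is listed above. Ahead of muscle were also proline-rich (17.2% of 29), fibronectin and sema (15% of 20 each), glutathione (14.7% of 34) and lipoprotein (14.3% of 21). In that order 1, 0, 3, 3 and 4 of their genes were at least 2-fold lower. Between cluster and kinesin lay maintenance, with 8 of 22 genes at least 2-fold lower and 0 higher. Words were ranked by the same changes, so the shares describe the response and test nothing.

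Neighbouring genes changed together at 10 places. These are runs of at least 3 genes called at least 4-fold in 1 direction, each no more than 200000 bases from the next, and they hold 37 of the 521 such genes with a position. Positions are those of the probes in the mm9 build in the files. On chr9:7282762-7568297, which spans 5 genes tested, Mmp13, Mmp3 and Mmp8 rose. On chr11:83388223-83566087 the chemokine gene Ccl9 rose 4.64-fold beside Wfdc17, Wfdc18 and Wfdc21, 4 of 9 genes tested there. On chr4:63006483-63076038 Orm1, Orm3 and Orm2 rose with Whrn, a scaffold of sensory cells, which rose 5.57-fold.

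Another rising run lay on chr6:142034707-142371216, with the transporters Slco1a6 and Slco1a5, the islet hormone Iapp and the liver glycogen synthase Gys2. Slco1a5 read -5.04, -6.05 and -4.18 in vehicle and -0.34, -0.30 and -0.32 at 1 nM, while Slco1a6 was not well above background on any vehicle array and rose at least 3.17-fold. Iapp read -8.62, -8.10 and -5.92 in vehicle and -4.94, -4.84 and -4.97 at 1 nM, and Gys2 -8.63, -8.44 and -5.40 in vehicle and -4.38, -4.11 and -4.50 at 1 nM. Both were well above background on 1 vehicle array, and their changes were 2.63 and 3.16 with all arrays and at least 3.45-fold and 5.17-fold without vehicle replicate 3. On chr2:92795818-93041875 Syt13, a synaptotagmin, read 3.14, 3.01 and 2.95 in vehicle and 5.70, 5.72 and 5.73 at 1 nM, a 6.44-fold increase, and Trp53i11 rose 4.53-fold.

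Falling runs included 5 of 6 genes tested on chr13:21845304-21902754 and 5 of 21 on chr13:23626113-23853815, mostly histone genes, where probes of near-identical copies can cross-hybridise. On chr13:49560073-49687906 Aspn and Omd, small leucine-rich proteoglycans, fell beside Cenpp, a kinetochore gene. Omd read -2.70, -2.47 and -2.97 in vehicle and -5.97, -6.20 and -5.98 at 1 nM, a 10.1-fold decrease. Cenpp fell 7.84-fold. On chr1:175787550-175850595 the interferon-inducible genes Mndal and Ifi203 fell 11.9-fold and 8.59-fold. On chr4:63674248-63810702 Tnc, tenascin C, fell 7.72-fold with a Riken gene and an unnamed transcript.

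Markers of muscle and of other cell types were read in the same fit. The myotube markers were well above background on all arrays, 8 of 8, and 4 rose and 0 fell, against 3 without vehicle replicate 3 and 0 with median scaling. Their summed linear level, with each array's 75th percentile set to 1, was 302 to 343 in vehicle and 384 to 415 at 1 nM. Ttn, titin, rose 1.60-fold and Ckm, muscle creatine kinase, 1.40-fold, while Myog, myogenin, changed by -0.13 (adjusted p = 0.225 in limma). Among 7 myoblast markers Myod1 rose 1.59-fold, Pax7 fell 1.48-fold and Vcam1 2.06-fold.

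Fibroblast markers went in both directions, and their summed level fell. Of 6, 4 fell and 2 rose, and their summed level was 14.9 to 20.6 in vehicle and 7.10 to 7.35 at 1 nM. Dpt, dermatopontin, was not well above background on any 1 nM array and fell at least 6.70-fold, while Postn, periostin, fell 3.45-fold and Lum, lumican, rose 1.63-fold. Cnn1, a smooth muscle marker, fell 6.91-fold, while the summed level of 3 smooth muscle markers was 142 to 149 in vehicle and 110 to 121 at 1 nM. The part of these cells in the result was not tested.

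Markers of fat cells did not move as a set. Fabp4 alone of 7 was called higher, and 0 were called lower. Adipoq, adiponectin, read -8.93, -8.13 and -2.80 in vehicle and -2.55, -2.42 and -2.66 at 1 nM, a difference of 4.08 that did not pass the test (adjusted p = 0.0788 in limma), and it was called without vehicle replicate 3, at least 17.9-fold higher (adjusted p = 4.59e-06 in limma). Pparg, the fat cell regulator, read -0.91, -1.06 and -0.10 in vehicle and -0.91, -0.99 and -0.92 at 1 nM, a difference of -0.25 that did not pass the test. Of 5 macrophage markers 0 were called in the fit of all arrays and 1 was called higher without vehicle replicate 3. Of 4 epithelial markers 1 was called lower, Krt14, by -0.66, and of 3 endothelial markers only Tek was called. Without vehicle replicate 3, 1 epithelial marker was called lower and 1 higher, Cdh1, by 0.47 (adjusted p = 0.021 in limma).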

How the data were processed

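The deposited scanner files hold processed signal, mean signal and background as intensity on a linear scale, and 0 or 1 marks of spot type and quality, per the file headers. The submitters' processing notes name Agilent Feature Extraction 11.5.1.1 for extraction. The deposited series table holds the authors' log2 values and served as an alternative.

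Control and non-uniform spots were dropped. Log2 processed signal minus the array's 75th percentile was averaged over spots of a probe. Probes well above background on all 3 arrays of a group were kept, 28342 of 39429 (71.9%), and a gene took its kept probe with the highest mean. Names came from a RefSeq table of GRCm38.p6, for 21081 kept probes by accession and 2330 by symbol, and 4931 kept the files' names. All 9 arrays entered 1 fit in limma 3.58.1 (lmFit and eBayes, R 4.3.3) without a block. The fit was tested on simulated data.

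Named genes are the 40 highest and 40 lowest changes called with and without vehicle replicate 3 whose groups do not overlap, up to 5 called members per list or family by p, members of neighbouring runs, all markers, Cyp24a1 and Vdr, and some that the rule took are left out for length or are not reported here. Members, lists and families were chosen with earlier results of these data known, and some family patterns were updated to current symbols. Where a probe lies in its gene was not analysed here.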

Additional observations from a re-analysis of the deposited data

How the results depend on the processing

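The 5182 calls (2584 higher, 2598 lower) moved with scaling, array weights, the slide used and the threshold. Scaling each array to its median gave 1176 (723 and 453), and the same without vehicle replicate 3, a setting added after seeing the data, gave 3405, of which 1474 were lower. Quantile normalization gave 2800 (1029 lower), and normexp with quantile normalization 2953 (1015 lower). Array weights gave 11449 (5309 and 6140), but their estimate stopped before converging. Fits within slide 1 and within slide 2 gave 1593 (622 and 971) and 10421 (7635 lower), each with 1 lone sample assumed to vary like the others. An adjusted p under 0.01 left 3091 (1411 and 1680), and at least 2-fold 1452 (455 and 997). Leaving out 1 array at a time gave 3505 to 5565 calls, 1602 to 2918 higher and 1885 to 2681 lower, and the fewest higher calls came without 1 nM replicate 2 (1602) or 3 (1620).

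The replicate numbers did not pair vehicle with 1 nM samples, whose deviations correlated at 0.055, -0.021 and -0.0069, and the fit with the replicate number as a block gave 4666 calls. With the slide as a block there were 4822. Of the 80 highest and lowest named genes, 0 of those with a value reversed in any setting run. These genes were picked as the largest changes called with and without vehicle replicate 3, so that outcome was largely set by the choice. Within 1.5 times of the main count were also the submitters' table (4089), no probe filter (4135), the vehicle and 1 nM arrays alone (3942) and normexp with the 75th percentile (4428). Dim probes limit the folds of genes near background.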
